A study of Mus musculus with 22 samples.

Results

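Left ventricles of mice under pressure overload were regrouped by how much Vcp transcript each library held, without regard to the genotype on the label. Of the 22 libraries of the series, 14 came from hearts after TAC (transverse aortic constriction), an operation that narrows the aorta so that the left ventricle pumps against a raised pressure. A library with at least 100 TPM of Vcp (transcripts per 1000000, a share that allows for transcript length) was called Vcp-high and one with under 70 TPM Vcp-low. This put 4 libraries in the Vcp-high and 3 in the Vcp-low group of each table, 2 weeks and 5 weeks after TAC, and none between the limits. All animals were FVB mice of 3 to 5 months, either wild type (WT) or with a VCP transgene (VCP TG). The Vcp-high group at 2 weeks held VCP TG replicates 1, 2 and 3 and a library labelled WT (replicate 1), and the Vcp-low group held WT replicates 2, 3 and 4. The Vcp-high group at 5 weeks held VCP TG replicates 1 and 2 and the libraries labelled WT replicates 2 and 3, and the Vcp-low group held WT replicates 1 and 4 and the library labelled VCP TG replicate 3. So 1 library at 2 weeks and 3 at 5 weeks lay against their label. The promoter of the transgene and the species of its VCP sequence are not given in the sources used here. The groups are libraries sorted by a measured transcript, and are not genotypes.

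VCP, also called p97, is an abundant ATPase that forms a ring of identical subunits. With cofactors such as UFD1 and NPLOC4 it pulls ubiquitinated proteins out of membranes and complexes, often ahead of breakdown by the proteasome. It serves the removal of misfolded proteins from the endoplasmic reticulum and the clearance of damaged organelles, and in heart muscle it has been studied under pressure load.

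Vcp (ENSMUSG00000028452, chromosome 4, 42979963 to 43000507, minus strand, GRCm38) chose the groups, so its values are a description. Values of a gene are given below in a fixed library order. For the Vcp-high libraries it is the one labelled WT replicate 1, then VCP TG replicates 1, 2 and 3 at 2 weeks, and the ones labelled WT replicates 2 and 3, then VCP TG replicates 1 and 2 at 5 weeks. For the Vcp-low libraries it is WT replicates 2, 3 and 4 at 2 weeks, and WT replicates 1 and 4, then the one labelled VCP TG replicate 3, at 5 weeks. At 2 weeks Vcp stood at 119, 135, 125 and 151 TPM in the Vcp-high libraries, against 48.2, 47.7 and 50.3 TPM in the Vcp-low libraries. In the 5-week table it stood at 123, 107, 118 and 108 TPM in the Vcp-high libraries, against 62.2, 47.7 and 39.1 TPM in the Vcp-low libraries. The library nearest the upper limit from above held 107 TPM and the library nearest the lower limit from below held 62.2 TPM, both at 5 weeks.

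A second entry of the tables follows Vcp. Vcp-rs (ENSMUSG00000083327, chromosome X, 104345829 to 104348234, minus strand) is annotated by GENCODE M21 as a processed pseudogene, a copy of a spliced transcript without introns. Vcp has 17 exons and a coding sequence of 2421 bases. Of 2406 bases aligned with Vcp-rs, 8 differed, an identity of 99.667%, and the longest identical stretch ran over 794 bases. Reads from the coding sequence therefore cannot be divided surely between the entries. The window with the most differences, bases 1480 to 1539 of the coding sequence, is shown because it is where a read could tell the entries apart. Both lines are read 5′ to 3′ on the transcribed strand from the GENCODE M21 transcripts (GRCm38), and capitals mark the 3 differing bases.
Vcp: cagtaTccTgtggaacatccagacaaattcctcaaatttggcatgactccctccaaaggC
Vcp-rs: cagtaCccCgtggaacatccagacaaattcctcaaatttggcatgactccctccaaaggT

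At 2 weeks Vcp-rs was listed at 47.4, 83.8, 73.6 and 120 TPM in the Vcp-high libraries, against 0.165, 0.0561 and 0.105 TPM in the Vcp-low libraries. At 5 weeks it was listed at 2.495, 105, 92.7 and 95.3 TPM in the Vcp-high libraries, against 0.212, 0.0694 and 0.0562 TPM in the Vcp-low libraries. All 8 Vcp-high libraries lay above all 6 Vcp-low libraries. The exception in size was the library labelled WT replicate 2 at 5 weeks, which had 123 TPM of Vcp but 2.495 TPM of Vcp-rs. The average of both within-table differences was 5.70 ± 0.66 on the log2(TPM + 1) scale (standard error). Since the entries share nearly all of their sequence, this difference is tied to the rule that formed the groups, and its limma adjusted p of 0.00796 is no independent evidence.

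**Figure D1:**
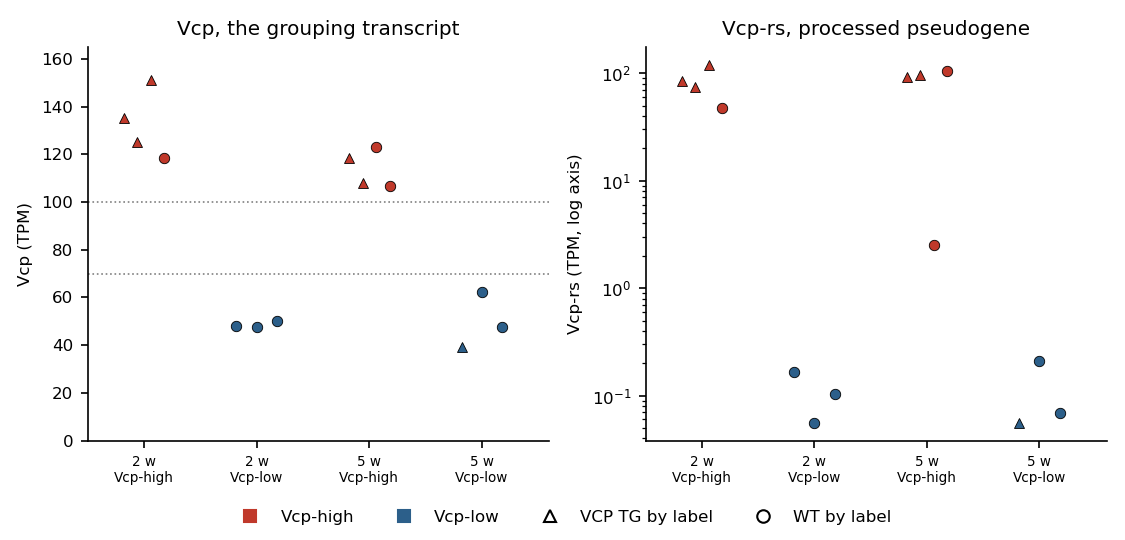
Vcp (left, TPM, dotted lines at the limits of 100 and 70 TPM) and Vcp-rs (right, TPM on a log axis) in each of the 14 TAC libraries, Vcp-high left of Vcp-low within each table, with triangles for libraries labelled VCP TG and circles for WT. The Vcp-rs values of 7 of the 8 Vcp-high libraries lie at 47.4 TPM or more, 1 lies at 2.495 TPM, and all Vcp-low libraries lie at or under 0.212 TPM.

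The libraries also differed in traces of other tissue and in how TPM was spread. The myosin light chain of atria, Myl7, was measured at 1546, 154, 951 and 1.39 TPM in the Vcp-high libraries at 2 weeks, against 3.34, 13.2 and 30.3 TPM in the Vcp-low libraries. Its 5-week levels were 33.1, 104, 33.1 and 37.2 TPM in the Vcp-high libraries, against 1.07, 4.16 and 0.671 TPM in the Vcp-low libraries. So 4 of the 8 Vcp-high libraries and no Vcp-low library held 100 TPM or more, and the groups overlapped at 2 weeks only through VCP TG replicate 3. Of all TPM, the genes of the mitochondrial genome (13 in number) held 40.2% to 55.5% in the Vcp-high libraries at 2 weeks and 55.6% to 60.9% in the Vcp-low libraries, while at 5 weeks the shares were 49.4% to 54.0% in the Vcp-high libraries and 47.6% to 55.6% in the Vcp-low libraries. Genes at 1 TPM or more numbered 13414 to 16813 in the Vcp-high libraries at 2 weeks and 12868 to 13224 in the Vcp-low libraries. At 5 weeks they numbered 13315 to 14988 in the Vcp-high libraries and 13047 to 13554 in the Vcp-low libraries. In whole tissue, fewer cells of a type and less RNA per cell cannot be told apart. Markers of cardiac myocytes (5 genes) were present in all libraries, with summed levels of 16515 to 20372 TPM in the Vcp-high and 16449 to 18096 TPM in the Vcp-low libraries at 2 weeks, and 16344 to 17487 TPM in the Vcp-high and 15048 to 18222 TPM in the Vcp-low libraries at 5 weeks. Markers of the working ventricle (Myl2, Irx4 and Hey2) summed to 3074 to 6167 TPM in the Vcp-high and 4961 to 5320 TPM in the Vcp-low libraries at 2 weeks, and to 4956 to 5677 TPM in the Vcp-high and 3998 to 6118 TPM in the Vcp-low libraries at 5 weeks. The lowest sum at 2 weeks was in the library labelled WT replicate 1, which was the richest in Myl7.

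**Figure D2:**
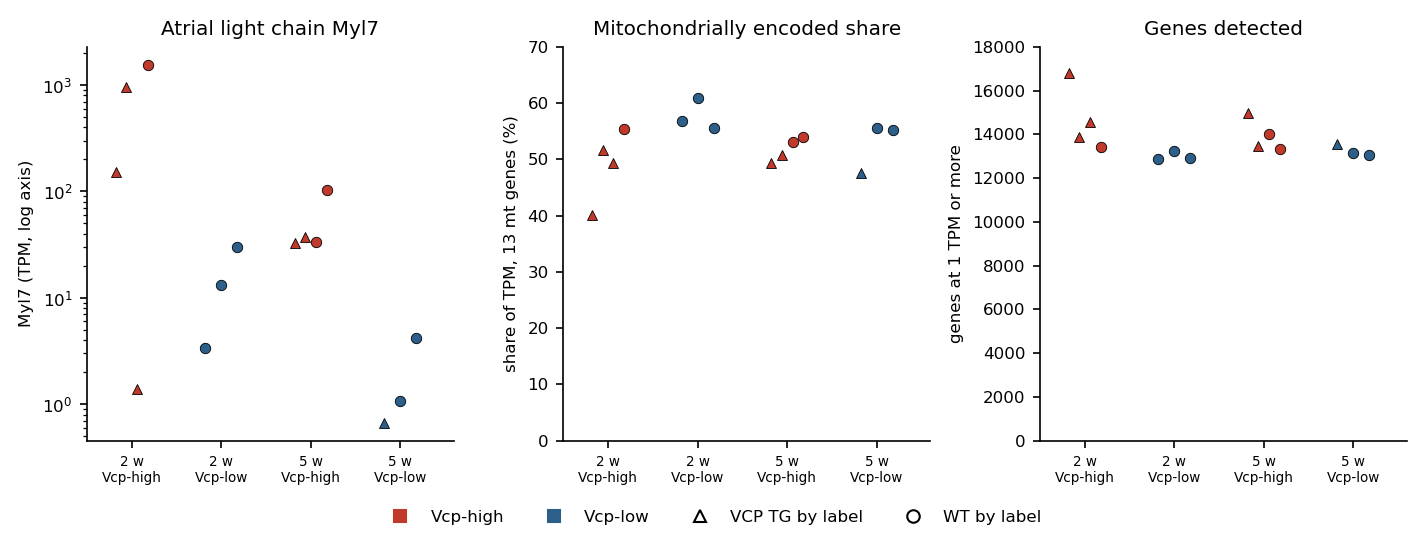
Myl7 (left, TPM, log axis), the share of TPM in the 13 mitochondrially encoded genes (middle, percent) and the number of genes at 1 TPM or more (right) in each of the 14 TAC libraries, Vcp-high left of Vcp-low in each table; triangles are labelled VCP TG and circles WT. Myl7 reaches 1546 TPM in the Vcp-high libraries and 30.3 TPM in the Vcp-low libraries at 2 weeks, and all 4 Vcp-high libraries lie above all 3 Vcp-low libraries at 5 weeks.

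Genes that went the same way in both tables were sought first. With Vcp itself left out, 15538 genes were tested in a limma fit that averaged the within-table differences, and 16 genes (0.103%) passed an adjusted p of 0.05, 14 higher (0.0901%) and 2 lower (0.0129%) in the Vcp-high libraries. At an unadjusted p under 0.05 there were 2812 (18.1%). The median gene was 0.15 higher in Vcp-high libraries on the log2(TPM + 1) scale, and 80.4% of genes had a positive difference. TPM is a share of a fixed total, so this shift was removed in other ways too. After rescaling to nuclear protein-coding genes, where the median was 0.01, 3 genes passed as higher and 4 as lower. After quantile normalization, where it was -0.02, 6 passed as higher and 6 as lower. The genes past the threshold under all 3 scalings were Dbh, Car9, Phgdh, Lrtm1 and Bdh1.

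No overlap is a plainer measure: every Vcp-high library above every Vcp-low library, or below, in a table. At 2 weeks 15.6% of genes were higher without overlap and 2.16% lower, and at 5 weeks 4.87% were higher and 0.438% lower. Genes higher in both tables numbered 193 (1.24%) and genes lower in both 4 (0.0257%), while 10 (0.0644%) went opposite ways. Of the genes higher without overlap at 2 weeks, 7.97% were so at 5 weeks too, and of those at 5 weeks 25.5% were so at 2 weeks. Rescaling to nuclear genes gave 53 higher and 13 lower in both tables, and quantile normalization 26 higher and 59 lower. Under all 3 scalings 19 genes were higher and 3 lower, among them Dbh, Sardh, Car9, Map1a, Dnaic1, Slc17a7 and Nudt14 on the higher side and Lrtm1, Cdkl1 and Gstk1 on the lower.

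**Figure D3:**
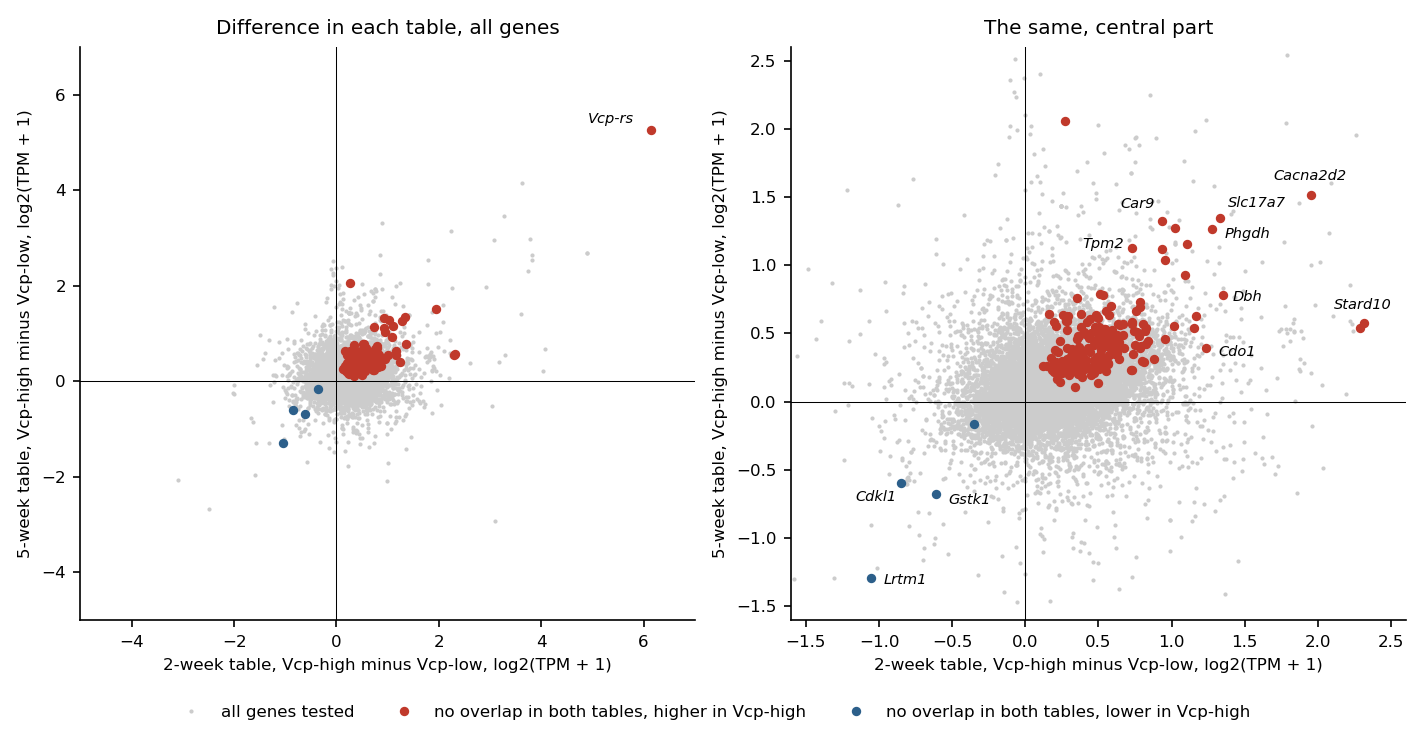
Difference between Vcp-high and Vcp-low libraries on the log2(TPM + 1) scale at 2 weeks (horizontal axis) and 5 weeks (vertical axis). Shown are the genes tested in the fit of 14 libraries (left), enlarged around the centre (right). Red and blue points are genes without overlap in both tables. Of these, 193 lie at the upper right and 4 at the lower left, and Vcp-rs lies far from the rest.

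Among the enzymes, Dbh had the smallest adjusted p. It encodes dopamine beta-hydroxylase, which makes noradrenaline and marks sympathetic nerve endings. At 2 weeks it stood at 4.72, 3.70, 4.93 and 4.31 TPM in the Vcp-high libraries, against 0.735, 1.32 and 1.36 TPM in the Vcp-low libraries. The 5-week values were 1.77, 2.16, 2.30 and 1.72 TPM in the Vcp-high libraries, against 1.13, 0.476 and 0.654 TPM in the Vcp-low libraries. The groups did not overlap in either table, and the library labelled WT in the Vcp-high group at 2 weeks lay among the VCP TG ones. Dbh rose by 1.07 ± 0.12 on average (limma adjusted p = 0.00466). It also passed in the 2-week table alone (1.35 ± 0.16, adjusted p = 0.0387), though not in the 5-week table alone (0.78 ± 0.19, adjusted p = 0.748).

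Sardh, the mitochondrial enzyme that turns sarcosine into glycine, lies beside Dbh on chromosome 2 (27188393 to 27248337, minus strand), with a gap of 5192 bases between the genes. At 2 weeks it stood at 4.55, 5.83, 4.95 and 5.61 TPM in the Vcp-high libraries, against 2.95, 1.35 and 2.56 TPM in the Vcp-low libraries. At 5 weeks it stood at 5.00, 7.42, 7.35 and 7.73 TPM in the Vcp-high libraries, against 2.43, 3.16 and 2.80 TPM in the Vcp-low libraries. The groups did not overlap, and the average difference was 1.00 ± 0.13 (limma adjusted p = 0.00834). Its adjusted p was 0.0691 after rescaling to nuclear genes and 0.0488 after quantile normalization.

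Phgdh, the first enzyme of serine synthesis from glucose, stood at 3.29, 3.08, 3.61 and 3.76 TPM in the Vcp-high libraries at 2 weeks, against 0.309, 0.499 and 2.10 TPM in the Vcp-low libraries. Its 5-week levels were 2.62, 2.80, 5.23 and 3.92 TPM in the Vcp-high libraries, against 0.885, 0.931 and 0.846 TPM in the Vcp-low libraries. Its average difference was 1.27 ± 0.18 (limma adjusted p = 0.0130), with 1.28 at 2 weeks and 1.26 at 5 weeks. Without the library WT replicate 3 at 2 weeks the adjusted p was 0.0515. The next enzymes of the same route, looked up after this result, did not pass: Psat1 differed by 0.49 ± 0.20 (adjusted p = 0.237) and Psph by 0.25 ± 0.16 (adjusted p = 0.403). Aldh1l2, a mitochondrial enzyme of folate metabolism, was higher without overlap in both tables, with a difference of 0.65 ± 0.12 that missed the threshold (adjusted p = 0.0645).

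Cdo1, cysteine dioxygenase, which starts the route from cysteine to taurine, stood at 4.97, 4.15, 4.12 and 2.46 TPM in the Vcp-high libraries at 2 weeks, against 0.649, 1.11 and 1.48 TPM in the Vcp-low libraries. At 5 weeks the Vcp-high libraries held 1.92, 2.32, 2.00 and 1.40 TPM and the Vcp-low libraries 1.04, 1.37 and 1.20 TPM, with 1.40 and 1.37 TPM as the closest pair. Its average difference of 0.81 ± 0.14 passed narrowly (limma adjusted p = 0.0409) and kept its call in 3 of the 14 fits that left out a library, where the adjusted p reached 0.157. Nudt14, a hydrolase of UDP-sugars, differed by 0.62 ± 0.10 (adjusted p = 0.0253), with means of 2.11 ± 0.346 TPM in the Vcp-high libraries and 0.748 ± 0.158 TPM in the Vcp-low libraries at 2 weeks (SD, n = 4 and 3). Neither Cdo1 nor Nudt14 passed after rescaling to nuclear genes or after quantile normalization.

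Car9 and Tpm2 are neighbours on chromosome 4 that point towards each other, Car9 at 43506966 to 43513729 (plus strand) and Tpm2 at 43514711 to 43523765 (minus strand), with 981 bases between them. Car9 encodes carbonic anhydrase 9, a membrane enzyme that handles carbon dioxide and acid outside the cell, and a well known target of hypoxia-inducible factor in human cells. At 2 weeks it stood at 3.30, 5.24, 4.67 and 3.35 TPM in the Vcp-high libraries, against 1.19, 2.22 and 1.67 TPM in the Vcp-low libraries. The 5-week values were 6.31, 4.77, 4.81 and 6.23 TPM in the Vcp-high libraries, against 0.892, 2.35 and 1.73 TPM in the Vcp-low libraries. The groups lay apart in both tables, and the average difference was 1.13 ± 0.15 (limma adjusted p = 0.00834).

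Tpm2, beta-tropomyosin, a thin filament protein of slow skeletal and smooth muscle, was the most abundant of the protein-coding genes that passed as higher. At 2 weeks it stood at 35.2, 32.4, 38.1 and 22.2 TPM in the Vcp-high libraries, against 19.5, 18.5 and 17.6 TPM in the Vcp-low libraries. In the 5-week table it stood at 45.9, 44.0, 38.8 and 58.4 TPM in the Vcp-high libraries, against 22.6, 21.5 and 18.01 TPM in the Vcp-low libraries. There was no overlap, and the difference was 0.93 ± 0.13 (limma adjusted p = 0.0130). Its adjusted p was 0.283 after rescaling to nuclear genes and 0.0904 after quantile normalization, so the call depended on the scaling. Vcp lies on the same chromosome, and among the 65 genes tested within 2 Mb of it 4 (6.15%) were higher without overlap in both tables, namely Car9, Tpm2, Dnaic1 and Enho, against 1.27% of all genes in either direction. This window was chosen after their values were seen.

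The 250 bases before the RefSeq start of Car9 are shown because, of the genes past the threshold, it has the best known transcriptional control. The window is chr4:43506776-43507025 (GRCm38.p6, plus strand, RefSeq), 5′ to 3′. Capitals mark ACGTG, a core bound by hypoxia-inducible factor, here read on the other strand as CACGT. In GENCODE M21 Car9 starts at 43506966, inside the window, and the marked bases lie downstream of that start. Other forms of that core were not searched.
Car9: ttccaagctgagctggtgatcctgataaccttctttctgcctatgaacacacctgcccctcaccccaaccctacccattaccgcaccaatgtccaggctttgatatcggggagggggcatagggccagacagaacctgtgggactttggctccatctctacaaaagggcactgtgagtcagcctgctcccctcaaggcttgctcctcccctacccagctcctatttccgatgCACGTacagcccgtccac

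Promoters of 14 of the 16 genes named by rule for the average were in the RefSeq table. They are set by RefSeq starts, and the windows of Dbh, Sardh and Cdkl1 lie inside the genes as GENCODE M21 places them. ACGTG on either strand was in 2 of them, Car9 and Slc17a7, and in 16.6% of all 32851 promoters of that length. TGATGNAA, the core of the element read by ATF4 in amino acid stress, was in 0 of the 14 and in 3.45% of all promoters. A match is a run of letters, and its absence says only that these letters are not in the window.

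Slc17a7, Map1a, Dnaic1 and Rgs12 passed as well, but none of them after rescaling to nuclear genes or after quantile normalization. Slc17a7, the vesicular glutamate transporter 1, stood at 10.3, 8.21, 10.99 and 6.41 TPM in the Vcp-high libraries at 2 weeks, against 2.73, 2.95 and 3.04 TPM in the Vcp-low libraries. At 5 weeks the Vcp-high libraries held 5.60, 8.83, 10.4 and 10.4 TPM and the Vcp-low libraries 4.69, 0.861 and 4.03 TPM. The groups did not overlap, and the difference of 1.34 ± 0.23 passed narrowly (limma adjusted p = 0.0409), a call kept in 5 of the 14 fits without a library.

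Map1a, which binds microtubules, stood at 5.36, 4.45, 4.38 and 3.76 TPM in the Vcp-high libraries at 2 weeks, against 1.66, 1.501 and 2.503 TPM in the Vcp-low libraries. At 5 weeks it stood at 7.85, 6.28, 4.57 and 5.99 TPM in the Vcp-high libraries, against 3.08, 1.34 and 2.64 TPM in the Vcp-low libraries. It did not overlap, with a difference of 1.02 ± 0.15 (limma adjusted p = 0.0130). Dnaic1, an intermediate chain of ciliary dynein, differed by 1.13 ± 0.18 (adjusted p = 0.0253), with means of 4.41 ± 0.563 TPM in the Vcp-high libraries and 1.52 ± 0.368 TPM in the Vcp-low libraries at 2 weeks (SD, n = 4 and 3). Rgs12, a regulator of G protein signalling, differed by 0.60 ± 0.10 (adjusted p = 0.0310). Its Vcp-high libraries held 7.07, 7.93, 7.56 and 7.99 TPM at 5 weeks, close above the 5.76, 5.30 and 6.86 TPM of the Vcp-low libraries. Pip4k2c, a phosphoinositide kinase subunit, was the first gene below the threshold, with 0.50 ± 0.09 (adjusted p = 0.0628).

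Of the 14 genes past the threshold as higher, Vcp-rs and Rps23-ps1 are pseudogenes and 3110082I17Rik has no name that tells its role (0.52 ± 0.08, limma adjusted p = 0.0271). Rps23-ps1 copies a ribosomal protein transcript of which the genome holds many copies, so its level is uncertain. It was listed at 7.38, 25.2, 28.8 and 11.4 TPM in the Vcp-high libraries at 2 weeks and at 0 in all 3 Vcp-low libraries. At 5 weeks the groups overlapped, with 31.7, 51.6, 33.5 and 59.8 TPM in the Vcp-high libraries and 17.98, 25.8 and 38.7 TPM in the Vcp-low libraries.

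Genes lower in the Vcp-high libraries were few in TPM without rescaling. After quantile normalization 26 genes were higher and 59 lower without overlap in both tables. Lrtm1, a membrane protein with leucine-rich repeats, stood at 26.2, 26.2, 29.1 and 38.2 TPM in the Vcp-high libraries at 2 weeks, against 75.1, 58.5 and 55.1 TPM in the Vcp-low libraries. The 5-week values were 23.2, 13.03, 19.1 and 10.9 TPM in the Vcp-high libraries, against 55.0, 34.5 and 34.6 TPM in the Vcp-low libraries. The groups lay apart, and Lrtm1 fell by 1.17 ± 0.18 (limma adjusted p = 0.0182).

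Bdh1, the enzyme that interconverts the ketone bodies acetoacetate and beta-hydroxybutyrate, fell by 1.13 ± 0.19 on average (limma adjusted p = 0.0409). At 2 weeks it stood at 7.94, 19.0, 14.6 and 17.0 TPM in the Vcp-high libraries, against 66.2, 50.8 and 62.5 TPM in the Vcp-low libraries. At 5 weeks the groups overlapped, with 41.2, 34.6, 31.3 and 35.9 TPM in the Vcp-high libraries and 66.0, 35.4 and 33.1 TPM in the Vcp-low libraries, so the call rests on the 2-week table. It was kept in 5 of the 14 fits without a library. The other genes lower without overlap in both tables did not pass in TPM without rescaling. Cdkl1 did pass after rescaling to nuclear genes (limma adjusted p = 0.0274) and after quantile normalization (adjusted p = 0.0152). Gstk1 passed after quantile normalization (adjusted p = 0.0248) and not after rescaling (adjusted p = 0.091). The values that follow are those without rescaling. Cdkl1, a protein kinase, differed by -0.72 ± 0.13 (adjusted p = 0.0645), Gstk1, the mitochondrial and peroxisomal glutathione transferase kappa, by -0.64 ± 0.12 (adjusted p = 0.0774), and mt-Co1, a mitochondrially encoded subunit of complex IV, by -0.26 ± 0.11 (adjusted p = 0.244).

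**Figure D4:**
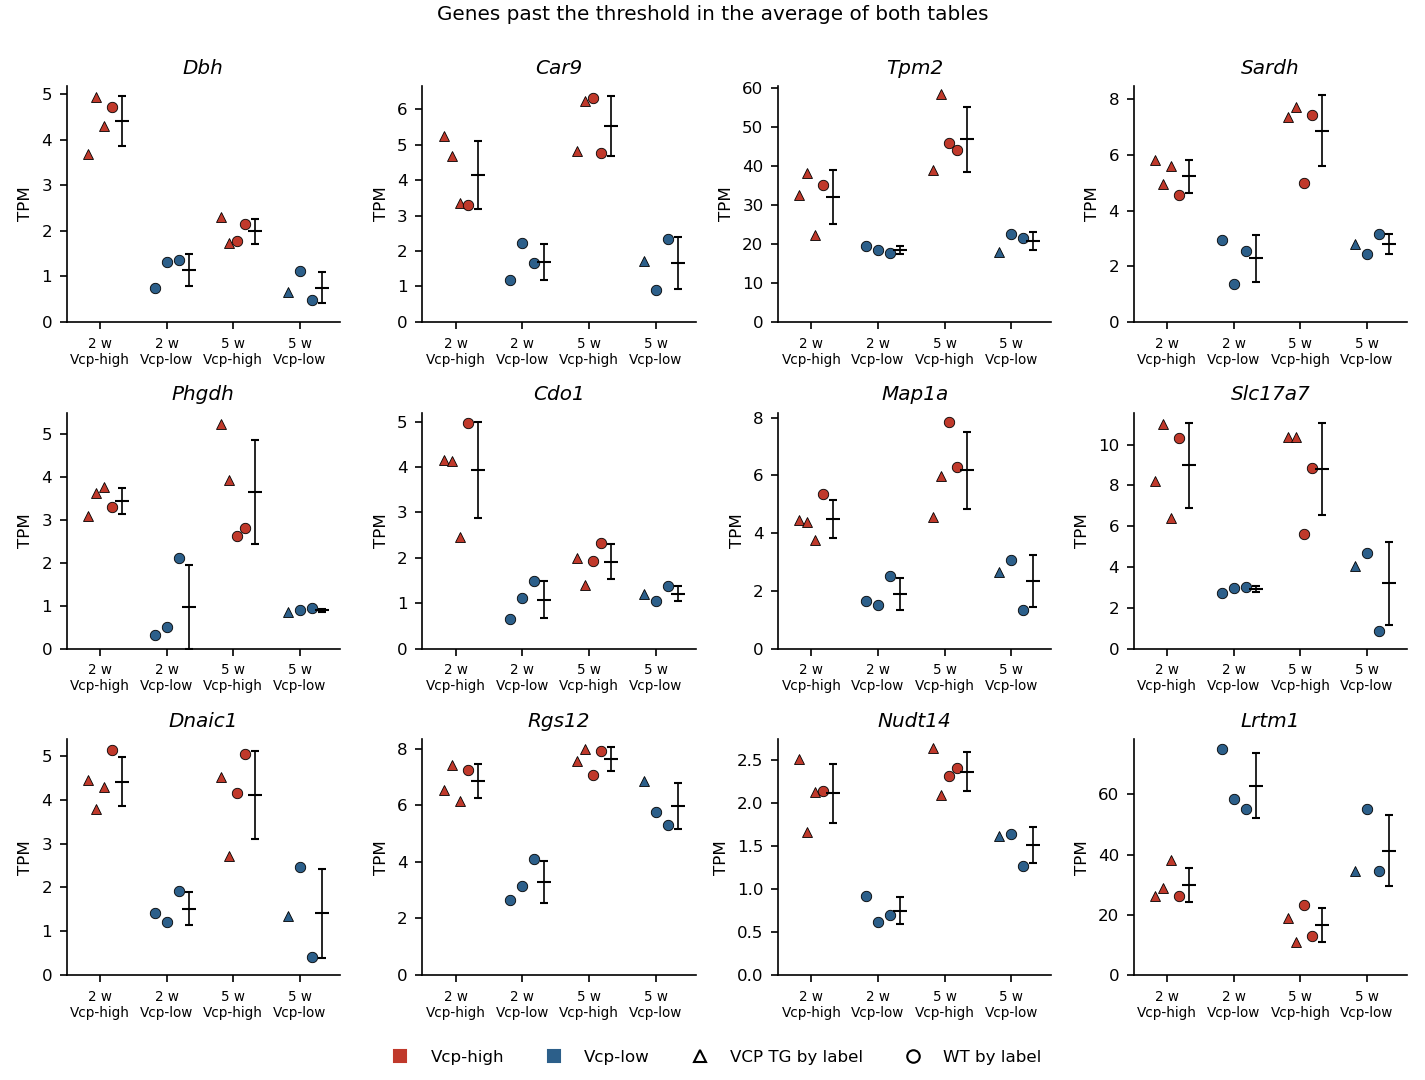
TPM of 12 genes past the threshold in the average of both tables, 1 point per TAC library, with mean ± SD at the right of each group (n = 4 Vcp-high, n = 3 Vcp-low in each table), Vcp-high left of Vcp-low; triangles are labelled VCP TG and circles WT. All 12 show no overlap in either table; Lrtm1 is the only one of them that is lower in the Vcp-high libraries.

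Single libraries and those rich in Myl7 bear on these calls. With each library left out in turn, Dbh, Car9, Sardh and Tpm2 kept their calls in all 14 fits, Map1a in 12, Lrtm1 in 11, Dnaic1 in 10, Nudt14 in 8 and Rgs12 in 6. Leaving out WT replicate 2 or WT replicate 3 at 2 weeks ended the calls of Map1a, Lrtm1, Dnaic1, Nudt14, Rgs12, Bdh1, Cdo1 and Slc17a7, and leaving out the library labelled WT replicate 3 at 5 weeks ended those of all but Map1a. Leaving out the 4 libraries with at least 100 TPM of it keeps 1 Vcp-high library at 2 weeks, and no gene passed the average then, against 2160 genes at an unadjusted p under 0.05. Dbh then differed by 1.04 and Car9 by 1.05, Sardh by 1.02 and Phgdh by 1.37, while Tpm2 differed by 0.70, Cdo1 by 0.54 and Lrtm1 by -0.95. This cut did not level Myl7 at 5 weeks. The Vcp-high libraries kept there held 33.1, 33.1 and 37.2 TPM of Myl7, against 1.07, 4.16 and 0.671 TPM in the Vcp-low libraries. With the mitochondrial share as a covariate 3 genes passed, among them Dbh (1.15, limma adjusted p = 0.0142). Without the Vcp-high library low in Vcp-rs 21 genes passed, 15 of them among the original 16. What part these library differences have in the other values was not tested.

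In the 2-week table alone 10 of 14161 genes (0.0706%) passed, 8 higher (0.0565%) and 2 lower (0.0141%) in the Vcp-high libraries. Beside Vcp-rs, Rps23-ps1 and Dbh, the higher ones included Agt, Nr4a3, Atf3 and Pdk4. Agt, angiotensinogen, the precursor of angiotensin, stood at 2.53, 4.76, 5.39 and 5.28 TPM in the Vcp-high libraries, against 0.132, 0.0699 and 0.327 TPM in the Vcp-low libraries, a difference of 2.19 ± 0.23 (limma adjusted p = 0.0237). Nr4a3, an orphan nuclear receptor that is induced early, stood at 17.7, 18.9, 22.9 and 26.0 TPM in the Vcp-high libraries, against 4.92, 3.85 and 3.75 TPM in the Vcp-low libraries, a difference of 2.10 ± 0.16 (adjusted p = 0.00771). Atf3, a transcription factor of the stress response, stood at 8.22, 8.11, 6.98 and 10.7 TPM in the Vcp-high libraries, against 1.19, 2.25 and 1.45 TPM in the Vcp-low libraries, a difference of 1.86 ± 0.18 (adjusted p = 0.0197). None of these groups overlapped. Pdk4, which holds back glucose oxidation, was higher by 1.33 ± 0.13 (adjusted p = 0.0197). Fnip2, a partner of folliculin in nutrient sensing, was lower, with 7.55, 6.999, 7.002 and 8.09 TPM in the Vcp-high libraries and 17.2, 15.0 and 16.2 TPM in the Vcp-low libraries, a difference of -1.03 ± 0.10 (adjusted p = 0.0197). With 1 of the 7 libraries left out in turn, Nr4a3 kept its call in 5 fits, Atf3 in 3, Fnip2 in 2 and Agt in 1. The remaining ones were the pseudogenes Gm38053 (higher) and Gm38295 (lower). At 2 weeks all Vcp-low libraries are WT and 3 of the 4 Vcp-high libraries are VCP TG, so Vcp level and label are nearly the same contrast there.

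At 5 weeks these genes overlapped. Agt stood at 2.59, 5.69, 1.01 and 1.32 TPM in the Vcp-high libraries, against 1.56, 0.546 and 6.70 TPM in the Vcp-low libraries. Nr4a3 stood at 76.5, 52.6, 8.42 and 6.61 TPM in the Vcp-high libraries, against 19.9, 3.40 and 36.4 TPM in the Vcp-low libraries. Atf3 stood at 11.3, 5.52, 1.75 and 2.04 TPM in the Vcp-high libraries, against 4.49, 10.2 and 7.65 TPM in the Vcp-low libraries. For Agt, Nr4a3 and Atf3 alike the libraries labelled WT were the higher ones within the Vcp-high group. The 5-week fit called 1 of 13985 genes (0.00715%), Gm11099. It is a predicted gene listed at 8.61, 7.77, 10.5 and 9.21 TPM in the Vcp-high libraries and at 0 in the Vcp-low libraries. In that fit 581 genes (4.15%) had an unadjusted p under 0.05, no larger a share than such a cut gives where nothing differs. Gm11099 overlapped at 2 weeks, where 1 Vcp-high and 1 Vcp-low library were listed at 0.

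The within-table differences themselves were compared in the 14-library fit. None of the 15538 genes passed for a difference between 5 and 2 weeks in limma (0%), 557 (3.58%) had an unadjusted p under 0.05, and the smallest adjusted p was 0.402. The genes called at 2 weeks alone are thus not shown to differ between the tables. Across genes, which are not replicates, the differences of both tables had a Pearson r of 0.27 and a Spearman rho of 0.24, and 68.7% had the same sign.

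Among the partners of VCP no gene passed. Of 27 cofactors and adaptors 20 had a positive difference, and their median was 0.11, against 0.15 for all genes. Nploc4, which with Ufd1 carries ubiquitinated cargo to VCP, stood at 13.3, 17.96, 15.5 and 18.8 TPM in the Vcp-high libraries at 2 weeks, against 11.5, 12.7 and 11.3 TPM in the Vcp-low libraries. At 5 weeks the Vcp-high libraries held 15.4, 13.9, 18.5 and 17.9 TPM and the Vcp-low libraries 17.4, 13.7 and 10.98 TPM. The difference was 0.33 ± 0.12 (limma adjusted p = 0.212), with overlap at 5 weeks. Ufd1 differed by 0.21 ± 0.11 (adjusted p = 0.308), Aspscr1, a cofactor also called TUG, by 0.41 ± 0.14 (adjusted p = 0.194), and Nsfl1c, the cofactor p47, by 0.20 ± 0.10 (adjusted p = 0.281).

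No gene of protein quality control passed either. In each of 3 lists 1 member was higher without overlap in both tables, near the 1.24% of all genes that were. Of 38 proteasome subunits 25 were positive and the median was 0.06. Psmd2, a subunit of the regulatory cap, was that member (0.26 ± 0.09, limma adjusted p = 0.196). Of 28 genes of the unfolded protein response and of degradation from the endoplasmic reticulum 24 were positive and the median was 0.16. Hyou1, a chaperone of that compartment, was that member here (0.41 ± 0.11, adjusted p = 0.137). Of 37 genes of autophagy and lysosomes 23 were positive, with a median of 0.07, and Atg7, which activates the conjugation of autophagosome proteins, was that member of the list (0.59 ± 0.13, adjusted p = 0.110). The 27 genes of the mTOR complexes had a median of 0.06 and no call.

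None of the 7 hypertrophy markers chosen by name passed. Nppa, the atrial natriuretic peptide, stood at 5174, 198, 1781 and 23.6 TPM in the Vcp-high libraries at 2 weeks, against 32.5, 74.5 and 88.6 TPM in the Vcp-low libraries. In the 5-week table it stood at 376, 106, 48.2 and 105 TPM in the Vcp-high libraries, against 235, 16.5 and 6.13 TPM in the Vcp-low libraries. The groups overlapped in both tables, and the difference of 2.44 ± 1.16 did not pass (limma adjusted p = 0.288). At 2 weeks the highest values were in the libraries richest in Myl7. At 5 weeks they were in the libraries labelled WT replicates 2 and 1, which held 33.1 and 1.07 TPM of Myl7. The library richest in Myl7 there, labelled WT replicate 3 with 104 TPM of it, held 106 TPM of Nppa. Nppb, the brain natriuretic peptide, differed by 0.52 ± 0.70 (adjusted p = 0.698), Acta1, skeletal actin, by 0.94 ± 0.49 (adjusted p = 0.314), Myh6, the adult myosin heavy chain, by 0.15 ± 0.13 (adjusted p = 0.546), and Atp2a2, the calcium pump of the sarcoplasmic reticulum, by -0.16 ± 0.12 (adjusted p = 0.484).

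Myh7, the fetal myosin heavy chain, overlapped at 2 weeks and not at 5 weeks. There it stood at 396, 296, 309 and 383 TPM in the Vcp-high libraries, against 236, 193 and 253 TPM in the Vcp-low libraries, and the average difference was 0.40 ± 0.14 (limma adjusted p = 0.203). Col1a1, the main fibrillar collagen, differed by 0.38 ± 0.40 (adjusted p = 0.613).

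Most energy genes had negative differences. Of 40 nuclear-encoded subunits of the respiratory chain none passed, 4 had a positive difference, and the median was -0.15, against 0.15 for all genes. Of these 40, 9 were lower without overlap at 2 weeks, against 2.16% of all genes, and 0 at 5 weeks. Sdha, the flavoprotein of complex II, stood at 366, 288, 332 and 395 TPM in the Vcp-high libraries at 2 weeks, against 508, 453 and 436 TPM in the Vcp-low libraries. Its 5-week levels were 284, 207, 244 and 250 TPM in the Vcp-high libraries, against 406, 328 and 229 TPM in the Vcp-low libraries, which overlap. Its difference was -0.40 ± 0.14 (limma adjusted p = 0.209). The 13 mitochondrially encoded subunits had a median of -0.10, 3 of them positive, and the 16 genes of the tricarboxylic acid cycle a median of -0.07. Fatty acid oxidation had a median of -0.02 over 29 genes and glycolysis of -0.04 over 22. Of these 22, 1 was higher without overlap in both tables, against 1.24% of all genes, namely Hk1, hexokinase 1 (0.26 ± 0.09, limma adjusted p = 0.194). Of 23 genes of mitochondrial biogenesis and dynamics, with a median of 0.03, it was 1 as well. That gene was Mfn2, which fuses mitochondria (0.22 ± 0.10, adjusted p = 0.251).

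**Figure D5:**
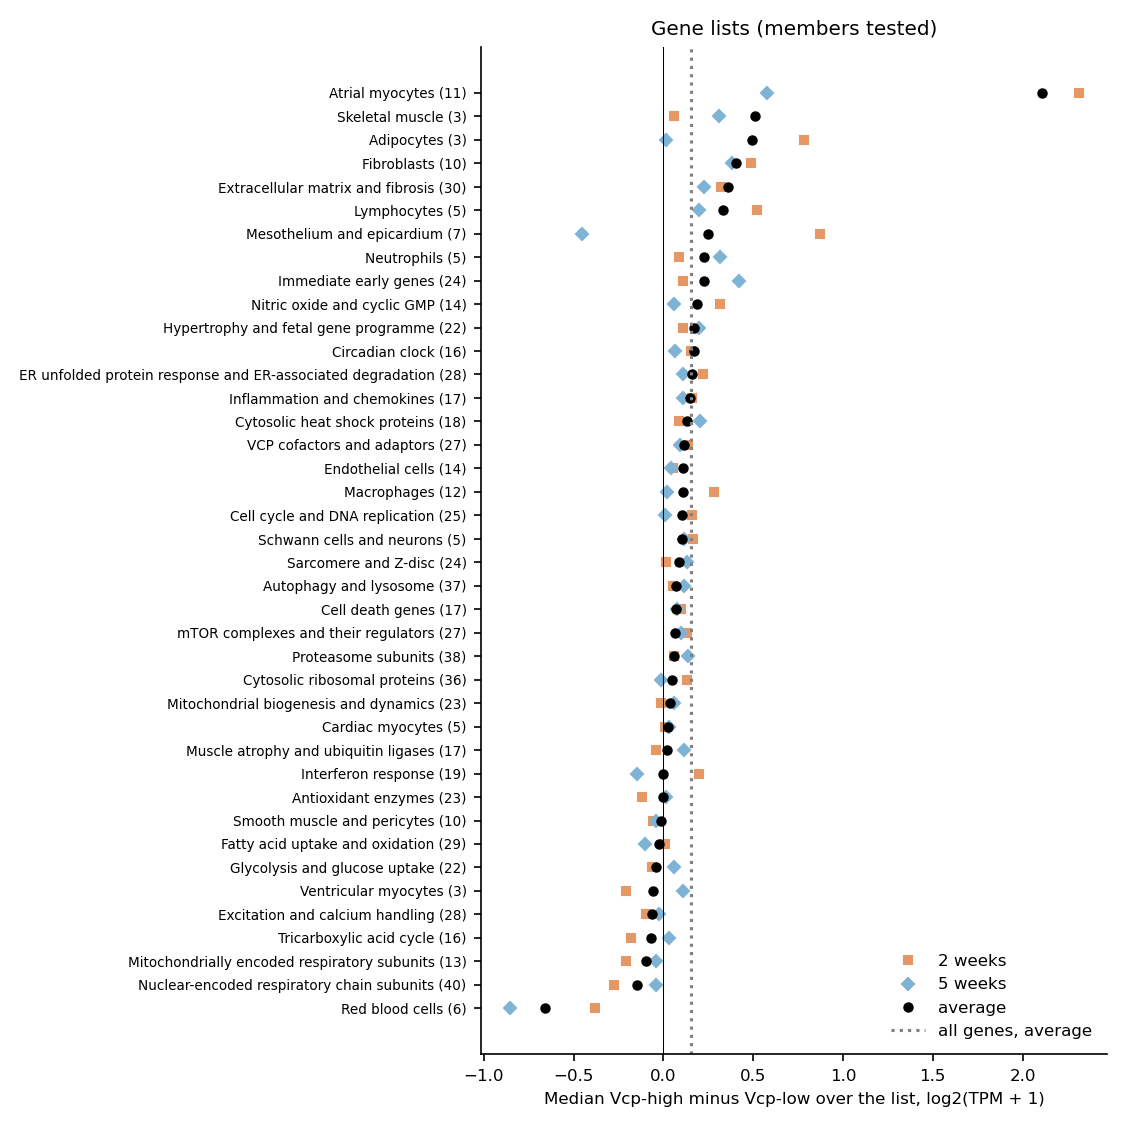
Median difference between Vcp-high and Vcp-low libraries on the log2(TPM + 1) scale for each gene list, with the number of members tested in brackets; squares are 2 weeks, diamonds 5 weeks, circles the average of both, and the dotted line is the median of all genes. Atrial markers lie at 2.11 and markers of red blood cells at -0.66 in the average, and most other lists lie near the dotted line.

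Markers of other cells were compared too. All 11 atrial markers tested had a positive average difference, with a median of 2.11, and none passed. Of these 11, 5 were higher without overlap at 2 weeks, against 15.6% of all genes, and 6 at 5 weeks, against 4.87%. Stard10, a lipid transfer protein, was the 1 of these 11 higher without overlap in both tables, against 1.24% of all genes. It stood at 64.3, 16.3, 50.5 and 11.2 TPM in the Vcp-high libraries at 2 weeks, against 5.35, 3.46 and 6.02 TPM in the Vcp-low libraries, and at 5 weeks at 7.08, 10.2, 7.99 and 9.73 TPM in the Vcp-high libraries, against 5.23, 6.86 and 4.59 TPM in the Vcp-low libraries (1.44 ± 0.32, limma adjusted p = 0.111). At 2 weeks VCP TG replicate 3, with 1.39 TPM of Myl7, held 11.2 TPM of Stard10. The libraries richest in Myl7, labelled WT replicate 1 and VCP TG replicate 2, held 64.3 and 50.5 TPM. What part atrial tissue has in the Stard10 difference was not tested. Fibroblast markers were positive in 10 of 10 with a median of 0.41, and extracellular matrix genes in 30 of 30 with a median of 0.36, and none of either list passed. Comp, a matrix protein of cartilage and tendon, and Thbs4, a thrombospondin made under load, were the 2 of these 30 matrix genes higher without overlap at 5 weeks, against 4.87% of all genes, which is near that share. Thbs4 stood at 22.8, 6.42, 6.65 and 7.59 TPM there in the Vcp-high libraries, against 5.26, 1.77 and 1.05 TPM in the Vcp-low libraries. Red cell genes were negative in 6 of 6 with a median of -0.66, and none passed. Hbb-bs, a beta-globin gene with a near-identical copy, stood at 32.0, 30.9, 39.9 and 28.8 TPM in the Vcp-high libraries at 2 weeks, against 45.0, 65.5 and 44.0 TPM in the Vcp-low libraries. At 5 weeks it overlapped, with 16.2, 7.96, 16.9 and 17.1 TPM in the Vcp-high libraries and 59.0, 26.7 and 15.1 TPM in the Vcp-low libraries.

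Of all members of the gene lists, Dbh was the 1 that passed, in the list of Schwann cells and neurons. In that list of 5 tested genes 4 had a positive difference and the median was 0.10, below that of all genes.

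The 8 sham libraries took no part in the rule. By the same limits 2 of them were Vcp-high (VCP TG replicates 2 and 3), 3 Vcp-low (WT replicates 1, 3 and 4) and 3 between. Of the 193 genes higher in both TAC tables, 166 (86.0%) were higher on average in these Vcp-high than in these Vcp-low sham libraries, against 79.8% of all genes, and 38 (19.7%) did not overlap, against 18.2% of all genes. Both shares are near those of all genes. Of the Vcp-high sham libraries, VCP TG replicate 3 stood apart, with 2269 TPM of Myl7 and 27.9% of TPM in mitochondrially encoded genes, against 37.9 TPM and 53.0% in VCP TG replicate 2. The Vcp-low sham libraries held 4.69 to 55.6 TPM of Myl7. The second value of each gene below comes from replicate 3, and the part of its makeup in them was not tested. Phgdh stood at 2.09 and 11.8 TPM in the Vcp-high sham libraries, against 1.03, 1.16 and 0.815 TPM in the Vcp-low ones. Car9 stood at 2.93 and 17.1 TPM in the Vcp-high sham libraries, against 0.417, 0.785 and 4.62 TPM in the Vcp-low ones, and overlapped. Dbh stood at 2.11 and 2.97 TPM in the Vcp-high sham libraries, against 2.65, 2.80 and 1.77 TPM in the Vcp-low ones, and Lrtm1 at 50.7 and 18.3 TPM in the Vcp-high, against 57.4, 18.2 and 31.7 TPM in the Vcp-low ones, both with overlap. With 2 against 3 libraries no test was made.

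The label was also used in place of the Vcp level in the same fit of the 14 libraries. Grouped as VCP TG against WT, 193 genes passed, 187 higher and 6 lower, and none of them was among the 16 called by Vcp level. By label 194 genes did not overlap in the same direction in both tables (169 higher, 25 lower). By Vcp level there were 197 (193 higher, 4 lower), so a number of this size is not particular to the Vcp level. Limited to the libraries whose Vcp level went with their label (3 against 3 at 2 weeks and 2 against 2 at 5 weeks), 82 genes passed, 69 higher and 13 lower, of which 9 were among the 16. With the label as a covariate 11 passed, 3 of them among the 16.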

How the data were processed

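The authors deposited 1 table with the sham and 2-week libraries and another with the 5-week libraries, both with 30735 genes in TPM, and every column adds up to 1000000. The submitters' processing notes name the tools STAR 2.5.4b, kallisto 0.43.1, DESeq2 and Trimmomatic 0.35 and the build GRCm38, without a role. TPM keeps no read number, so depth is unknown, and abundant transcripts lower all others. Per the labels' protocols the RNA came from a Qiagen miRNeasy kit and the libraries from an Illumina TruSeq Stranded mRNA kit. The members and gene lists were chosen with earlier results of these data known. Columns were matched to samples by name, and 0 columns were left without a sample.

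Tests used log2(TPM + 1) and limma 3.58.1 (R 4.3.3), two-sided, with a variance trend and robust moderation. Adjustment (Benjamini-Hochberg, threshold 0.05) ran over every gene that reached 1 TPM in 3 or more libraries of the fit. Each table was fitted alone. A fit of 14 libraries with 4 means gave the average and the difference of the within-table differences. A gene at 0 in a group can have too small a spread, and log2(TPM + 1) understates changes of low genes. The labels do not say which animals gave the libraries, so the p-values rest on a spread between libraries that may be technical, and the groups were chosen by a measured transcript. The fits were run on simulated data with planted differences and independent noise in each gene. Those data held no shift shared by the genes of a library, so they do not test the calls against such a shift. Names and positions came from GENCODE M21, which held 30074 of the 30735 identifiers. Promoters came from RefSeq on GRCm38.p6.

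Genes were named by rule: up to 12 per direction with the largest average difference among protein-coding genes past the threshold without overlap in both tables, with a mean of at least 1 TPM in both and no predicted name (Gm with digits, Rik, clone names), filled by unadjusted p, up to 5 per direction per table, up to 4 per list by p, and 7 fixed markers of hypertrophy. Vcp-rs, Bdh1, 3110082I17Rik, Pdk4, the Gm genes, Myl7, Aldh1l2, Psat1, Psph, Enho and the members of lists without overlap were named after their values were seen. Alternatives were another pseudocount (0.1), filters, scalings, covariates, subsets of libraries and each library left out.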

Additional observations from a re-analysis of the deposited data

Results flagged for a closer look

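Values far from the other 3 libraries of a Vcp-high group were looked for with Dixon's test in 130 groups of 4, and 12 were found. For independent and normally distributed values chance alone gives about 1 in 20 groups. The test used TPM without a log, and some genes were chosen after their values were seen. Genes can also vary together within a library, so that rate may not hold here. At 5 weeks the library labelled WT replicate 2 stood apart in Sardh (4.997 TPM, below the others), Vcp-rs (2.495 TPM, below), Cspg4, a pericyte proteoglycan (4.585 TPM, above), and Thbs4 (22.76 TPM, above). The library labelled WT replicate 3 stood above the others in the atrial genes Myl7 (103.7 TPM), Myl4 (63.94 TPM) and Sln (44.93 TPM), and below them in Hbb-bs (7.96 TPM). VCP TG replicate 1 stood apart in Atg7 (9.911 TPM). At 2 weeks the library labelled WT replicate 1 stood above the others in Nppb (345.1 TPM) and Hyou1 (9.654 TPM), and VCP TG replicate 2 in the potassium channel gene Kcnj5 (15.42 TPM). Outside the TAC libraries, Vcp-rs stood above the WT sham libraries in VCP TG sham replicates 2 (76.15 TPM), 3 (142.6 TPM) and 4 (3.483 TPM). Replicate 1, with 0.325 TPM of Vcp-rs, also lay above the highest WT sham library, at 0.234 TPM.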

How the results depend on the processing

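In the average 16 genes passed. The number was 9 without a filter, 7 with a mean of at least 5 TPM, 7 after rescaling to nuclear protein-coding genes, 82 in libraries whose Vcp went with the label, 193 grouped by label, 0 without the libraries rich in Myl7 and 3 with the mitochondrial share as a covariate. It ranged from 8 to 30 with 1 library left out: 8 without WT replicate 2 or 3 at 2 weeks or WT replicate 3 at 5 weeks, 10 without VCP TG replicate 1 at 5 weeks, 27 without VCP TG replicate 3 and 30 without WT replicate 1 at 2 weeks. At 2 weeks, where 10 passed, the number was 6 with the stricter filter, 25 rescaled (7 higher, 18 lower), 30 after quantile normalization (8 higher, 22 lower), 16 with the label as a covariate, 36 in libraries that went with their label, 0 without those rich in Myl7, 1 with the mitochondrial covariate and 3 with the spread pooled over both tables. With 1 library left out it ranged from 1 to 36: 1 without VCP TG replicate 2 or WT replicate 4, 2 without VCP TG replicate 3 or WT replicate 2, 6 without WT replicate 3 and 36 without WT replicate 1. At 5 weeks, where 1 passed, it was 3 with the label as a covariate, 0 in libraries that went with their label, 5 without those rich in Myl7, 4 with the mitochondrial covariate, 2 without the library low in Vcp-rs and 0 with pooled spread, and 1 to 5 with 1 library left out (2 without WT replicate 2, 5 without replicate 3, 3 without replicate 4). For the difference between the tables it was 1 with a pseudocount of 0.1 and 0 to 2 with 1 library left out (2 without WT replicate 1 at 2 weeks). The 197 genes without overlap in both tables became 86 with the stricter filter, 66 rescaled, 85 after quantile normalization, 70 with library medians subtracted (16 higher, 54 lower; chosen after seeing the data), 2013 in libraries that went with their label, 834 without those rich in Myl7 and 337 without the one low in Vcp-rs, and 210 to 572 with 1 library left out (572 without WT replicate 1 and 452 without VCP TG replicate 3 at 5 weeks). Grouped by label the number was 194 (169 higher, 25 lower). Fewer libraries make non-overlap easier to reach, and the cause of the other changes was not tested. With the replicate number as a block the counts were 0 in the average, 0 at 2 weeks and 2 at 5 weeks; same-numbered libraries correlated at -0.67 to 0.09, so the numbers are not shown to pair them. Signs turned for genes that had not passed in the average: Myh6 was -0.062 rescaled, -0.043 with the label as a covariate and -0.033 with medians subtracted. Nppb was -0.083 in libraries that went with their label, -0.69 by label, -0.15 without those rich in Myl7, -0.59 with the block and -0.13 to 1.06 with 1 library left out (-0.13 without WT replicate 4 at 5 weeks). Col1a1 was -0.25, -0.64 and -0.066 under the first 3 of these. Grouped by label, Nppa was -0.81, Clu -0.011, Comp -0.098, Thbs4 -0.31 and Nsfl1c -0.030 (Clu passed with the level of receptor genes as a covariate, 1.41, limma adjusted p = 0.0351), and Sln was -0.35 without the libraries rich in Myl7. TPM holds no read number, so depth could not be weighed.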

Other observations

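Genes of nitric oxide and cyclic GMP signalling were positive in 13 of 14, with a median difference of 0.19 (log2 scale) against 0.15 for all genes, and none passed. At 2 weeks 8 of the 14 were higher without overlap, against 15.6% of all genes, and at 5 weeks 0. Ddah1, which breaks down an inhibitor of nitric oxide synthase, differed by 0.54 ± 0.14 (limma adjusted p = 0.136), and Nos3, the endothelial synthase, by 0.32 ± 0.16 (adjusted p = 0.309). Of 24 immediate early genes 20 were positive, with a median of 0.22, and none passed in the average. At 2 weeks 3 of the 24 (Nr4a3, Atf3 and Fos) were higher without overlap, against 15.6% of all genes, and at 5 weeks 2 (Egr3 and Klf2), against 4.87%, so both counts are near the share of all genes.

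Kcnip2, a subunit of the transient outward potassium channel, stood at 15.9, 24.7, 19.4 and 25.1 TPM in the Vcp-high libraries at 2 weeks, against 55.7, 41.1 and 57.3 TPM in the Vcp-low libraries. At 5 weeks it stood at 26.9, 24.3, 24.5 and 27.2 TPM in the Vcp-high libraries, against 57.0, 26.8 and 27.7 TPM in the Vcp-low libraries, with overlap. Its difference of -0.83 ± 0.17 did not pass (limma adjusted p = 0.0954). Clu, the chaperone clusterin, stood at 508, 167, 294 and 146 TPM in the Vcp-high libraries at 2 weeks, against 110, 98.3 and 138 TPM in the Vcp-low libraries, and at 161, 219, 184 and 223 TPM in the Vcp-high libraries at 5 weeks, against 122, 147 and 59.1 TPM in the Vcp-low libraries. It did not overlap in either table, with a difference of 1.01 ± 0.27 (adjusted p = 0.141). Cacna2d2, a calcium channel subunit, was higher without overlap in both tables as well (1.74 ± 0.34, adjusted p = 0.0914). Its Vcp-high libraries held 10.8, 3.45, 17.5 and 1.90 TPM at 2 weeks, and the highest 2 of these were the libraries richest in Myl7. These genes were chosen after their values were seen.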
